A study of Mus musculus with 6 samples.

Results

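The 40 genes described here cover defence against reactive oxygen species and its regulators, metallothioneins, and subunits of oxidases that make such species. RNA sequencing measured them in hearts of newborn mice. They were taken from the expression table by gene symbol, and each symbol matched 1 of its 56748 genes. The study compared 3 hearts with the genotype label kdm5b Cko, a cardiac knockout of the histone demethylase gene Kdm5b, called cKO below, with 3 hearts with the genotype label FF, titled Flox and called FF below. All hearts were taken at postnatal day 1, and the labels give no further allele, strain or sex. The sources used here name no Cre driver and do not state that the 6 hearts are 6 animals, so each p-value reflects only the variation among these libraries, which could be technical. Expression is given in FPKM, a fragment count scaled by gene length and sequencing depth, as deposited by the authors.

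The transcription factor NRF2, encoded by Nfe2l2, is held in the cytoplasm and marked for degradation by KEAP1, and oxidants or electrophiles release it. It then binds antioxidant response elements in genes that make and recycle glutathione, reduce thioredoxin and break down haem and quinones. Superoxide dismutases turn superoxide into hydrogen peroxide, which catalase, glutathione peroxidases and peroxiredoxins remove. Glutathione peroxidases and peroxiredoxins do so with reducing power from NADPH. Metallothioneins are small cysteine-rich proteins that bind zinc and copper and are induced through metal response elements. At birth the heart meets higher oxygen and turns to fatty acids as fuel, and its antioxidant enzymes are known to change around that time.

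The libraries held 15658893 to 20339926 reads. FF replicate 3 stood apart, with correlations of 0.880 to 0.909 with the other 5 libraries across the genes tested, against 0.954 to 0.984 among those 5. Its summed level of 10 thymocyte markers was 269.6 FPKM, against 1.21 to 1.73 in cKO hearts and 1.61 to 2.04 in the other FF hearts. Fitted differences are from all 6 libraries unless the sentence says that FF replicate 3 was left out. All 8 cardiomyocyte markers were above 1 FPKM in every library. Kdm5b itself stood at 2.80, 3.03 and 2.75 FPKM in cKO hearts and at 3.19, 3.25 and 3.92 FPKM in FF hearts. Its log2 difference of -0.20 (SE 0.12) was short of the threshold (limma, adjusted p = 0.447), as was -0.13 (SE 0.10) without FF replicate 3, and the level covers every exon and every cell type of the heart.

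With all 6 libraries, 0 of the 37 genes of the set that were tested differed between cKO and FF hearts at an adjusted p under 0.05 (limma with Benjamini-Hochberg adjustment), where 0.166% of all 12678 genes tested did (0.0710% higher and 0.0947% lower). Genes were tested on log2(FPKM + 1) where their mean was at least 1 FPKM, which left out Osgin1, Mt2 and Nox4. Before adjustment, 9 of 37 had a p under 0.05, 4 higher and 5 lower in cKO, against 17.9% of all genes (8.39% higher and 9.55% lower). The 3 cKO values lay wholly above or below the 3 FF values in 13 of 37 genes, 4 above and 9 below, against 28.0% of all genes (13.5% above and 14.5% below). Without FF replicate 3, 7 of 37 genes passed the threshold, or 18.9%, against a background of 13.6% (6.47% higher and 7.12% lower). Txnip, Gstm1, Mt1 and Mgst1 rose, and Sod1, Cyba and Gsr fell. In the same comparison 13 of 37 genes had an unadjusted p under 0.05, against 33.5% of all genes, and 22 did not overlap, against 52.1%. The shares of the set are near those of all genes, so its count of changes is no result about the set as a whole. Library weights put 12 of 37 past the threshold where 33.9% of all genes passed, and GC correction 2 where 3.69% did. The median log2 difference of the set was -0.07, against 0.01 over all genes, and -0.04 against -0.01 without FF replicate 3. In 25 of the 37 genes the difference was negative, but in 19 after quantile normalization and in 18 with library weights.

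**Figure D1:**
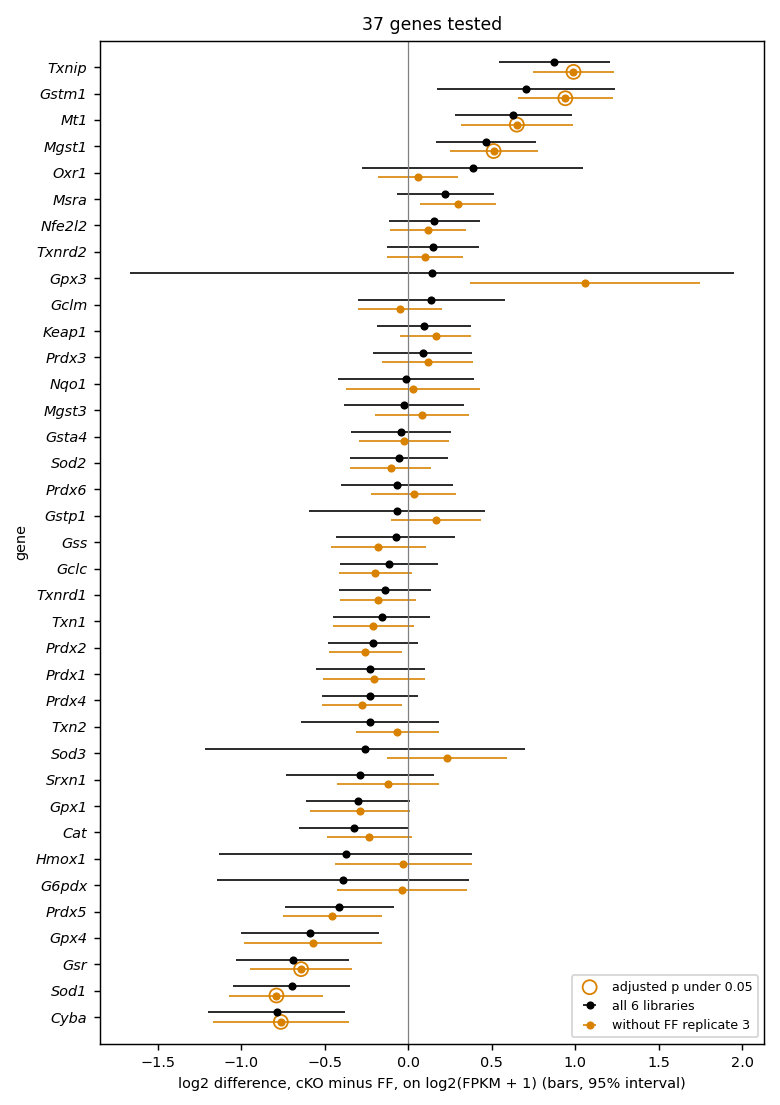
Difference in log2(FPKM + 1) between cKO and FF hearts, positive where cKO is higher (x axis), for the 37 genes tested (y axis), with 95% intervals, from all 6 libraries (black) and without FF replicate 3 (orange). Rings mark the 7 genes past the threshold without FF replicate 3, from Txnip at 0.99 to Sod1 at -0.79, and the interval of Gpx3 is the widest with all 6 libraries.

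Of the 5 genes of the NRF2 axis that were tested, 0 passed the threshold with or without the third FF library. With all 6 libraries 2 of the log2 differences were positive and 3 negative, and without it 3 were positive and 2 negative. Nfe2l2 was at 16.6, 15.5 and 16.3 FPKM in cKO hearts and at 15.8, 13.9 and 13.6 FPKM in FF hearts. The groups overlapped, and its log2 difference was 0.16 (SE 0.11; limma adjusted p = 0.530) with FF replicate 3 and 0.12 without it. Keap1, its cytoplasmic inhibitor, had 7.82, 8.63 and 8.30 FPKM in cKO and 7.38, 7.13 and 8.54 FPKM in FF hearts, a log2 difference of 0.09 (SE 0.12; limma adjusted p = 0.725). It was 0.16 (SE 0.09) without FF replicate 3, and the groups were then separate, as in 52.1% of all genes tested in that comparison. Nqo1, the quinone reductase that is a standard readout of NRF2, averaged 8.49 ± 1.36 FPKM in cKO and 8.58 ± 1.44 FPKM in FF hearts (SD, n = 3 each). That is a log2 difference of -0.01, with a 95% interval of -0.42 to 0.40, and 0.03 (SE 0.17) without FF replicate 3. Srxn1, which encodes sulfiredoxin, the enzyme that repairs overoxidized peroxiredoxins, had 2.68, 3.62 and 2.86 FPKM in cKO and 3.36, 3.41 and 5.24 FPKM in FF hearts. Its difference was -0.29 (SE 0.19; limma adjusted p = 0.467), and -0.12 (SE 0.13) without FF replicate 3. Hmox1, the haem oxygenase, had 6.88, 10.3 and 10.3 FPKM in cKO and 9.83, 8.64 and 20.0 FPKM in FF hearts, so that 1 FF library lay far above the other 5. Its log2 difference was -0.38 (SE 0.32) with all 6 libraries and -0.03 (SE 0.17) without that library.

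Osgin1, an oxidative stress-induced growth inhibitor, was near the limit of detection with 6 to 19 reads per library. It had 0.133, 0.114 and 0.103 FPKM in cKO and 0.175, 0.281 and 0.371 FPKM in FF hearts. All 3 cKO values lay below the FF values, for an exact permutation test (two-sided) with p = 0.1, which 3 against 3 libraries cannot go below, and 0.3 adjusted over the 3 genes below the filter.

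The core of the antioxidant response element was looked up in promoter windows of 300 bases (RefSeq, GRCm38.p6). The last 50 of these bases follow the transcription start. A match shows that a gene carries the core there, not that NRF2 binds it. Windows were found for 32 of the 40 genes. The core TGACNNNGC, searched on both strands, lay in 9 of these genes and in 12.4% of all 32851 windows. The 32 genes had 39 windows, so the count by gene and the share by window are unlike measures. The core and 10 bases on either side are printed 5′ to 3′ along the gene, with the core in capitals, as its reverse complement where it lies on the other strand. The genes were chosen in part as NRF2 targets, so the count is a description. A gene without a match may carry the element elsewhere.
Nfe2l2 (chr2:75704885-75704913, minus strand): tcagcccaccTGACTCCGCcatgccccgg
Srxn1 (chr2:152105542-152105570, plus strand): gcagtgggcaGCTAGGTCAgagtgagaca
Gclm (chr3:122245413-122245441, plus strand): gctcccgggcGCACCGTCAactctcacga
Prdx1 (chr4:116685456-116685484, plus strand): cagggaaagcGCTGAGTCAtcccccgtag
Mgst1 (chr6:138140461-138140489, plus strand): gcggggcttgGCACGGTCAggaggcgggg
Mt2 (chr8:94172529-94172557, plus strand): aaagggggtgTGACTCAGCgcggggggtg
Txnrd1 (chr10:82859104-82859132, plus strand): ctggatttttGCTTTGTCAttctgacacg
Sod1 (chr16:90220696-90220724, plus strand): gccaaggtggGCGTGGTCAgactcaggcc
G6pdx (chrX:74428919-74428947, minus strand): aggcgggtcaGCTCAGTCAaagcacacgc
Of these 9 genes, Mgst1 rose and Sod1 fell in cKO hearts without FF replicate 3, where 13.6% of all genes tested passed the threshold. Mt2 was below the filter, and the other 6 did not pass the threshold in either direction.

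Among the genes that make and reduce glutathione, Gsr was the one whose groups did not overlap. Gsr encodes glutathione reductase, which regenerates glutathione from its oxidized form at the expense of NADPH (ENSMUSG00000031584, chromosome 8, 34142551 to 34188191, plus strand). It had 8.03, 10.4 and 10.3 FPKM in cKO hearts, against 16.3, 14.6 and 17.2 FPKM in FF hearts. The cKO mean was 0.597 times the FF mean, a log2 difference of -0.69 (SE 0.14; limma adjusted p = 0.0837). Without FF replicate 3 it fell by 0.64 on the log2 scale (limma adjusted p = 0.0279), and adjusted p ran from 0.00430 to 0.317 over 18 alternatives. The subunits of the rate-limiting ligase of glutathione synthesis stayed short of the threshold, with log2 differences of -0.12 (SE 0.12) for the catalytic Gclc and 0.14 (SE 0.19) for the modifier Gclm. Without FF replicate 3, which was below the other 5 libraries for Gclm, the sign of Gclm turned to -0.05 (SE 0.11). Gclc was then at -0.20 (SE 0.09), with both FF values above all cKO values. Glutathione synthetase, Gss, stood at 2.60 ± 0.201 FPKM in cKO and 2.81 ± 0.559 FPKM in FF hearts (SD, n = 3 each), a log2 difference of -0.07 with FF replicate 3 and -0.18 without it. Its span overlaps the gene Acss2 on the other strand over 76.1% of its length. G6pdx, the entry enzyme of the NADPH-making pentose phosphate pathway, had 2.47, 3.10 and 3.93 FPKM in cKO and 2.97, 3.53 and 7.80 FPKM in FF hearts. The value of 7.80 in FF replicate 3 was the only one above 4, and the whole span of G6pdx lies within that of Ikbkg on the other strand.

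Of the 8 glutathione transferases and peroxidases, Gstm1 and Mgst1 rose in cKO hearts once FF replicate 3 was left out. The other 6 did not pass the threshold. That is 25% of a small group, where 13.6% of all genes tested passed. Gstm1, a cytosolic transferase that joins glutathione to electrophiles (ENSMUSG00000058135, chromosome 3, 107919571 to 107925289, minus strand), had 41.8, 53.5 and 49.3 FPKM in cKO hearts. FF hearts had 24.3, 24.7 and 40.6 FPKM, so FF replicate 3 came close to the lowest cKO value. The log2 difference was 0.71 (SE 0.22; limma adjusted p = 0.184), and 0.94 (SE 0.12; limma adjusted p = 0.0125) without FF replicate 3. Adjusted p ran from 0.000897 to 0.502 over the alternatives. Gstm1 has close paralogues, among which reads may be split. Mgst1, a transferase of endoplasmic reticulum and mitochondrial membranes (ENSMUSG00000008540, chromosome 6, 138117314 to 138133753, plus strand), had 9.61, 10.6 and 9.25 FPKM in cKO and 7.22, 5.99 and 7.34 FPKM in FF hearts. Every cKO value was above every FF value, with a log2 difference of 0.47 (SE 0.13; limma adjusted p = 0.139). With FF replicate 3 left out it was 0.51 (limma adjusted p = 0.0325), and adjusted p ran from 0.00268 to 0.416 over the alternatives.

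Gpx4 encodes the peroxidase that reduces lipid hydroperoxides in membranes and holds off ferroptosis. It had 75.7, 66.2 and 50.2 FPKM in cKO hearts, against 101, 88.4 and 98.2 FPKM in FF hearts, and the groups did not overlap. The log2 difference of -0.59 (SE 0.17; limma adjusted p = 0.164) missed the threshold, as did -0.57 (limma adjusted p = 0.0718) without FF replicate 3. Among the alternatives, library weights took it past the threshold, and its adjusted p ran from 0.0132 to 0.465. The mouse has Gpx4 pseudogenes that could share its reads. Gpx1, the cytosolic peroxidase, was listed at 2.35, 2.77 and 2.08 FPKM in cKO and at 3.29, 2.99 and 3.26 FPKM in FF hearts. That is a log2 difference of -0.30 (SE 0.13; limma adjusted p = 0.291) from 65 to 90 reads per library. The transferases Gsta4, Gstp1 and Mgst3 had log2 differences of -0.04, -0.07 and -0.02 with all 6 libraries. Leaving out FF replicate 3 turned Gstp1 to 0.17 (SE 0.11), with separate groups, and Mgst3 to 0.08 (SE 0.12), while Gsta4 was at -0.03.

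**Figure D2:**
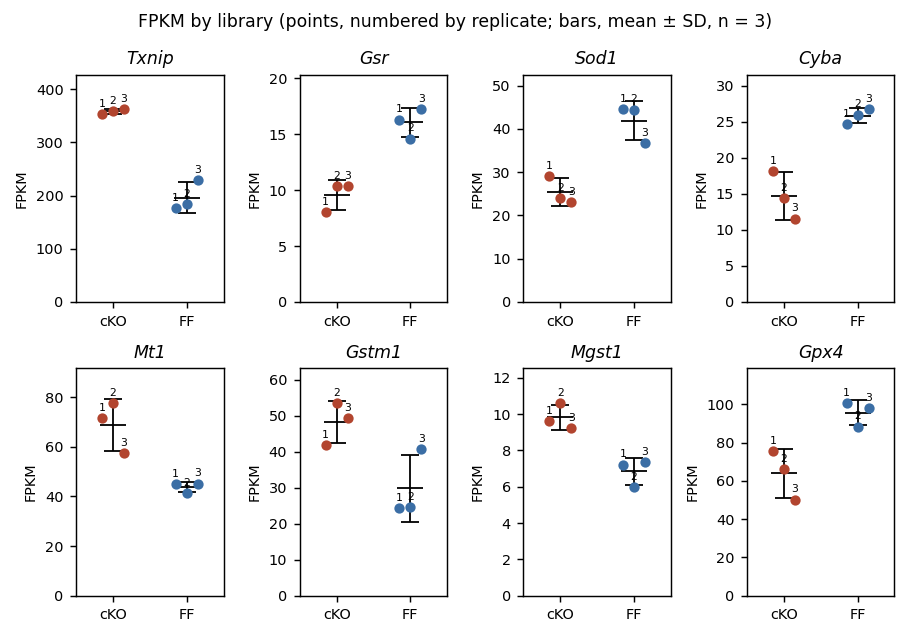
FPKM (y axis, from 0) of 8 genes in cKO and FF hearts, with 1 point per library numbered by replicate and bars for the mean ± SD (n = 3). Points of cKO and FF hearts do not overlap in any of the 8 panels. The genes shown are among the 13 of 37 tested whose groups do not overlap, against 28.0% of all genes. Gstm1 shows FF replicate 3 at 40.6 FPKM, just below the lowest cKO value of 41.8 FPKM.

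Of the enzymes that act on superoxide and hydrogen peroxide, Sod1 showed the clearest difference. Sod1 encodes the copper and zinc superoxide dismutase of the cytosol (ENSMUSG00000022982, chromosome 16, 90017642 to 90023217, plus strand). It had 29.2, 24.0 and 23.1 FPKM in cKO hearts, against 44.5, 44.4 and 36.7 FPKM in FF hearts. The groups were separate, with a cKO mean of 0.607 times the FF mean and a log2 difference of -0.70 (SE 0.15; limma adjusted p = 0.0888). Sod1, without FF replicate 3, fell by 0.79 on the log2 scale (limma adjusted p = 0.0137), and adjusted p ran from 0.00102 to 0.358 over the alternatives. Its end overlaps that of Scaf4 on the other strand over 11.7% of the gene. Catalase, Cat, had 48.7, 57.8 and 50.6 FPKM in cKO and 62.4, 60.8 and 75.0 FPKM in FF hearts, again without overlap. Its log2 difference was -0.33 (SE 0.14; limma adjusted p = 0.284), and -0.23 (SE 0.11) without FF replicate 3. The mitochondrial dismutase Sod2 differed by -0.06, with a 95% interval of -0.35 to 0.24, and by -0.11 without FF replicate 3. Its values of 30.8 to 32.5 FPKM in cKO lay within the 30.6 to 37.1 FPKM of FF hearts. Sod3, the dismutase secreted into the extracellular matrix, had 1.12, 1.10 and 1.32 FPKM in cKO and 0.721, 1.00 and 4.11 FPKM in FF hearts. Its log2 difference was -0.26 (SE 0.40) with FF replicate 3 and 0.23 (SE 0.15) without it. Red blood cells are rich in Sod1, Cat and Prdx2 proteins. The summed level of 8 erythroid markers was 891 to 1096 FPKM in cKO and 1002.5, 753 and 1554 FPKM in FF replicates 1, 2 and 3. Of the 5 erythroid markers tested 0 passed with all 6 libraries, and 2 rose without FF replicate 3, Hba-a2 by 0.65 and Alas2 by 0.64 on the log2 scale. The part of red cells in these results was not tested. In whole hearts, fewer cells of a type and less RNA per cell cannot be told apart.

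Peroxiredoxins reduce peroxides with electrons from thioredoxin. The threshold was passed by 0 of the 6, whether FF replicate 3 was used or not. The log2 difference was negative in 5 with all 6 libraries and in 4 without FF replicate 3. Prdx5, found in mitochondria, peroxisomes and cytosol, had the largest difference of the 6. It had 51.0, 43.2 and 41.1 FPKM in cKO and 66.5, 57.7 and 56.9 FPKM in FF hearts, a log2 difference of -0.41 (SE 0.14; limma adjusted p = 0.193). Leaving out FF replicate 3 made it -0.45 (limma adjusted p = 0.0558), and adjusted p ran from 0.0116 to 0.539 over the alternatives. Prdx4, the peroxiredoxin of the endoplasmic reticulum, had 20.9, 19.7 and 19.7 FPKM in cKO and 26.6, 22.7 and 22.2 FPKM in FF hearts, a log2 difference of -0.23 (SE 0.12; limma adjusted p = 0.378), and -0.28 (SE 0.10) without FF replicate 3. The cytosolic Prdx2 did not overlap between groups either, at 85.0 to 90.6 FPKM in cKO and 95.7 to 108 FPKM in FF hearts, and it passed the threshold with library weights. Prdx1 and Prdx6 overlapped, with log2 differences of -0.23 and -0.07, and of -0.20 and 0.03 without FF replicate 3. The mitochondrial Prdx3 was at 0.09 (SE 0.12), and at 0.12 without FF replicate 3, with 108 ± 8.94 FPKM in cKO and 102 ± 6.99 FPKM in FF hearts (SD, n = 3 each). Prdx1, Prdx2 and Prdx6 have annotated pseudogenes that could share reads.

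Txnip had the highest mean FPKM of the 40 genes in both groups and the smallest p among them. It encodes the thioredoxin-interacting protein, which binds and inhibits thioredoxin and lowers glucose uptake (ENSMUSG00000038393, chromosome 3, 96465273 to 96469199, plus strand). Its level was 353, 360 and 363 FPKM in cKO hearts, against 176, 184 and 229 FPKM in FF hearts. The 3 cKO values lay close together and far above the FF values, with a mean 1.82 times as high. The log2 difference was 0.87 (SE 0.14; limma adjusted p = 0.0659), and without FF replicate 3 Txnip rose by 0.99 (SE 0.10; limma adjusted p = 0.00802). It also passed after GC correction, quantile normalization and with library weights, and adjusted p ran from 0.000386 to 0.315 over the alternatives. The lncRNA gene Gm15441 on the other strand spans all of Txnip and had at most 1.03 FPKM.

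The Txnip promoter is known to respond to glucose through a carbohydrate response element, a pair of CACG motifs bound by MondoA and ChREBP with MLX. The window is printed because Txnip is the gene with the smallest p in the set, and the capitals mark the match to CACGNG, any 5 bases and CACGNG again (both strands searched; RefSeq, GRCm38.p6). This pattern was chosen with the known Txnip element in mind, and 16 of the 32851 windows, 0.0487%, held it.
Txnip (chr3:96557707-96558006, plus strand): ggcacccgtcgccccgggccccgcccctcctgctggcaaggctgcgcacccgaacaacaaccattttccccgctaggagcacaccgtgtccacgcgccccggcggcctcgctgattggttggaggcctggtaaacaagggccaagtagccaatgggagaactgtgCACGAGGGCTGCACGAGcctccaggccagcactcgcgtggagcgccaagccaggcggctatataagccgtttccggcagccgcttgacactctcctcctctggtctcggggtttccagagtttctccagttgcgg
Arrdc4, an arrestin-domain gene known to respond to the same factors, had 6.52, 5.66 and 8.41 FPKM in cKO and 5.84, 6.87 and 8.43 FPKM in FF hearts, and it was singled out here after its values were seen. Its log2 difference was -0.04 (limma adjusted p = 0.935), and 0.08 (SE 0.16) without FF replicate 3. The part of these factors in the Txnip values was not tested.

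The other 4 genes of the thioredoxin system did not pass the threshold. Thioredoxin itself, Txn1, was at 51.9 ± 2.36 FPKM in cKO and 58.2 ± 5.43 FPKM in FF hearts (SD, n = 3 each), a log2 difference of -0.16 (SE 0.12), and -0.21 without FF replicate 3. Its reductase Txnrd1, a selenoprotein and NRF2 target, differed by -0.14 (SE 0.11), and by -0.18 without FF replicate 3. The mitochondrial pair had log2 differences of -0.23 (SE 0.17) for Txn2 and 0.15 (SE 0.12) for Txnrd2, and of -0.07 and 0.10 without FF replicate 3.

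Of the metallothioneins, Mt1 was higher in every cKO heart than in any FF heart. Mt1 (ENSMUSG00000031765, chromosome 8, 94905710 to 94906955, plus strand) had 71.6, 77.6 and 57.3 FPKM in cKO hearts. The FF hearts had 45.0, 41.4 and 45.1 FPKM, with FF replicate 3 at the level of FF replicate 1. The log2 difference was 0.63 (SE 0.15; limma adjusted p = 0.105), and without FF replicate 3 Mt1 rose by 0.65 (SE 0.14; limma adjusted p = 0.0328). Adjusted p ran from 0.00473 to 0.349 over the alternatives. Its neighbour Mt2 (ENSMUSG00000031762, chromosome 8, 94899292 to 94900196, plus strand) was read 10, 2 and 4 times in cKO and 1, 1 and 2 times in FF hearts. These reads gave 0.861, 0.172 and 0.313 FPKM in cKO and 0.0996, 0.106 and 0.178 FPKM in FF hearts, with overlap between the groups (exact two-sided permutation p = 0.2, and 0.3 adjusted over the 3 genes below the filter).

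The promoter windows of both metallothionein genes are printed to show cores of the metal response element, the site of the zinc-sensing factor MTF1. The cores TGCACNC and TGCGCNC are in capitals on either strand (RefSeq, GRCm38.p6).
Mt1 (chr8:94178839-94179138, plus strand): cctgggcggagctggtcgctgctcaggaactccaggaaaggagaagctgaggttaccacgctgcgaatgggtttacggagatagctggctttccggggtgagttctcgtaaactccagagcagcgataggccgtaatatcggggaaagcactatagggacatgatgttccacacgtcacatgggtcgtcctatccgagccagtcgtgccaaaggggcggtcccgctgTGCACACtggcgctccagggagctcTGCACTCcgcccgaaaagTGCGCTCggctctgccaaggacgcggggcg
Mt2 (chr8:94172368-94172667, plus strand): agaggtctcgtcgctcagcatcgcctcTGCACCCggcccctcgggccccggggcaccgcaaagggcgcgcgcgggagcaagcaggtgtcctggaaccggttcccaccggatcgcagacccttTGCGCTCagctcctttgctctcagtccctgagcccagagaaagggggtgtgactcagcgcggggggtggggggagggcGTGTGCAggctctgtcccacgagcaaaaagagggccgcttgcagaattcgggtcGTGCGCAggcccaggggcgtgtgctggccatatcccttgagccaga
The Mt1 window held 3 cores and the Mt2 window 4. At least 1 core lay in 25.7% of all windows and in 10 of the 32 genes of the set with a window, which are again unlike measures. At least 3 lay in 1.97% and at least 4 in 0.517% of all windows. Mtf1 itself had 2.19, 1.77 and 1.96 FPKM in cKO and 1.60, 1.68 and 2.02 FPKM in FF hearts, and was named after its values were seen.

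Of the oxidase subunits, only Cyba was above the filter. It encodes p22phox, the membrane subunit that stabilizes NADPH oxidases and is abundant in phagocytes (ENSMUSG00000006519, chromosome 8, 123151515 to 123159669, minus strand). Its level was 18.2, 14.5 and 11.6 FPKM in cKO hearts, against 24.7, 26.0 and 26.7 FPKM in FF hearts, with no overlap. The log2 difference was -0.79 (SE 0.17; limma adjusted p = 0.0945), and without FF replicate 3 it fell by 0.76 (limma adjusted p = 0.0350). Adjusted p ran from 0.00258 to 0.337 over the alternatives. The summed level of 8 neutrophil markers was 8.57 to 10.9 FPKM in cKO and 26.4, 24.3 and 15.9 FPKM in FF replicates 1, 2 and 3. Of the 4 neutrophil markers tested 1, Ngp, fell with all 6 libraries. In the comparison without FF replicate 3, where Cyba passed, 3 of 4 fell, S100a8 by 1.06, S100a9 by 1.11 and Ngp by 1.39 on the log2 scale. Elane was listed at 0 in 5 libraries. For 8 macrophage markers the sums were 40.6 to 51.5 FPKM in cKO and 46.9, 59.3 and 98.2 FPKM in FF replicates 1, 2 and 3. With all 6 libraries 0 of them passed, and without FF replicate 3 Lyve1 alone passed, 0.84 higher in cKO hearts. The part of these cells in the Cyba result was not tested. Nox4, the oxidase of heart muscle that makes hydrogen peroxide, was low at 0.496, 0.460 and 0.473 FPKM in cKO and 0.705, 0.472 and 0.191 FPKM in FF hearts (exact two-sided permutation p = 0.8, adjusted 0.8).

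Both genes of oxidation repair were short of the threshold with and without FF replicate 3. Msra, which reduces oxidized methionine in proteins, had 6.32, 6.48 and 5.78 FPKM in cKO and 4.69, 5.02 and 5.83 FPKM in FF hearts. Its log2 difference of 0.22 (SE 0.12; limma adjusted p = 0.402) was 0.30 (limma adjusted p = 0.0816) without FF replicate 3. It passed with library weights, and adjusted p ran from 0.0352 to 0.685 over the alternatives. Oxr1, an oxidation resistance gene, had 11.6, 11.6 and 11.7 FPKM in cKO and 12.2, 10.2 and 5.15 FPKM in FF hearts. Its difference of 0.39 (SE 0.28) came down to 0.06 (SE 0.10) without FF replicate 3.

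**Figure D3:**
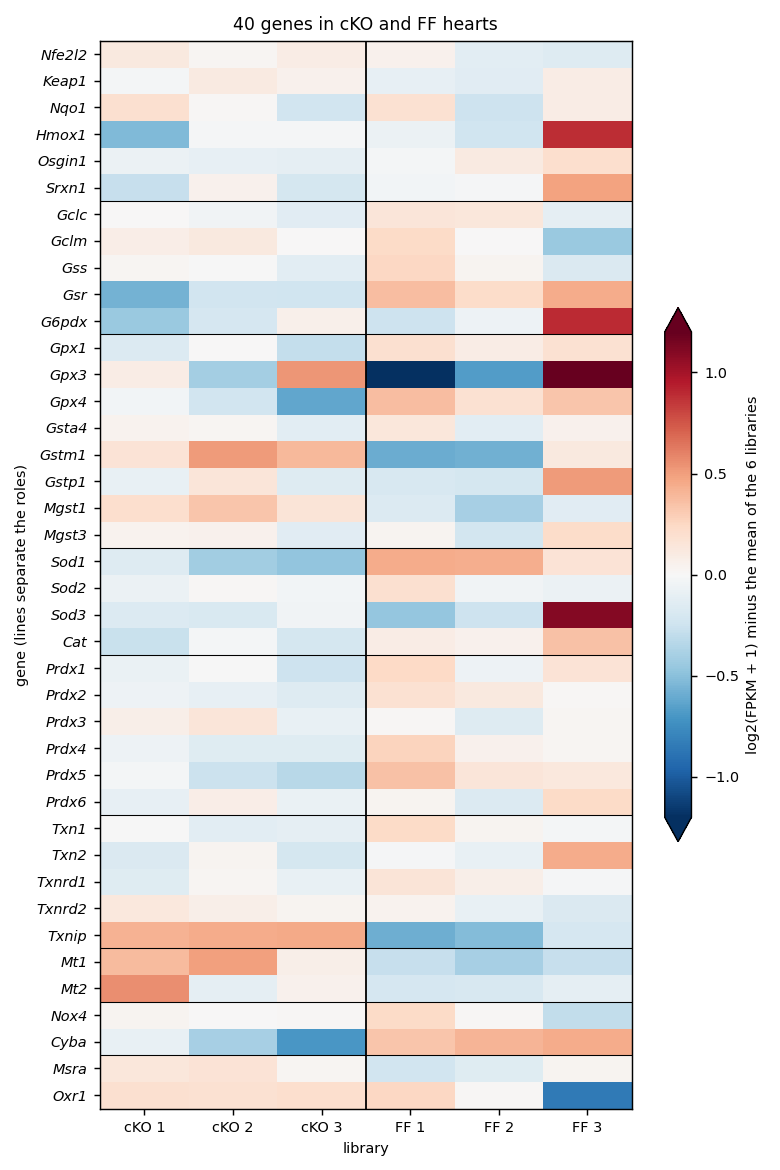
Deviation of log2(FPKM + 1) from the mean of the 6 libraries (colour) for the 40 genes (rows, separated by role) in 3 cKO and 3 FF libraries (columns). Txnip, Mt1, Mgst1 and Gstm1 are above their mean in all cKO libraries, while Gpx3, Sod3, G6pdx and Hmox1 are deep red in FF replicate 3.

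FF replicate 3 decided the values of several genes of the set. It lay above the other 5 libraries in 12 and below them in 6 of the 37 genes tested, 48.6% in all, against 67.9% of all genes tested. The widest case was Gpx3, the secreted plasma glutathione peroxidase, with 135, 94.9 and 184 FPKM in cKO hearts and 50.8, 78.8 and 430 FPKM in FF hearts. With all 6 libraries its log2 difference was 0.14 (SE 0.76; limma adjusted p = 0.939). Without FF replicate 3 every cKO value was above both FF values and the difference was 1.06 (SE 0.29; limma adjusted p = 0.0552). Over the alternatives it ran from -0.47 to 1.06, with adjusted p from 0.0395 to 0.980. In FF replicate 3, Sod3 was at 3.75 times, G6pdx at 2.51 times and Hmox1 at 2.04 times the median of the other 5 libraries, while Oxr1 was at 0.443 times and Gclm at 0.638 times. The summed fibroblast markers were 476 to 607 FPKM in cKO hearts and 590, 705 and 856 FPKM in FF replicates 1, 2 and 3. Single markers did not all follow the sum, and Postn was lowest in FF replicate 3, at 82.0 FPKM. Of the 8 markers 0 passed with all 6 libraries. Without FF replicate 3, 2 passed, with Tcf21 0.60 higher and Dcn 0.66 lower in cKO hearts on the log2 scale. The part of fibroblasts, and that of the thymocyte transcripts, in these values was not tested.

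**Figure D4:**
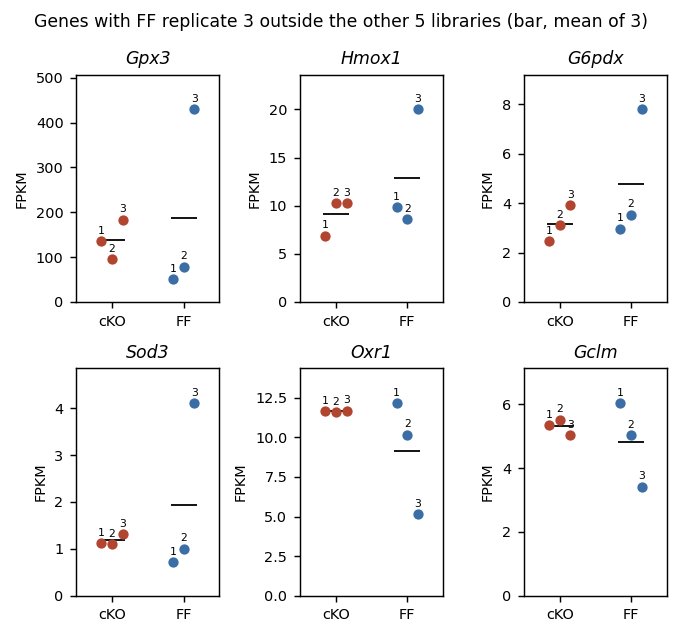
FPKM (y axis, from 0) of 6 genes in cKO and FF hearts, with 1 point per library numbered by replicate and a bar for the mean of 3. FF replicate 3 is above all other points for Gpx3 (430 FPKM), Hmox1, G6pdx and Sod3, and below them for Oxr1 (5.15 FPKM) and Gclm.

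Levels per length spanned a wide range within the set. Mean FPKM ran from 0.116 for Osgin1 to 358 for Txnip in cKO hearts, and from 0.128 for Mt2 to 196 for Txnip in FF hearts. Gpx3 came after Txnip in both groups, at 138 ± 44.4 FPKM in cKO and 187 ± 211 FPKM in FF hearts, so its place in FF rests on FF replicate 3. Next were Prdx3 and Prdx2 in cKO hearts, and Prdx2 and Prdx3 in FF hearts, pairs that overlap within their spread only in FF. In both groups 10 of the 40 genes had a mean of at least 50 FPKM. Mt1 held place 7 in cKO and place 11 in FF hearts. The median SD was 8.26% of the mean in cKO and 10.9% in FF hearts for the genes of the set, against 10.6% and 22.9% over all genes tested.

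The wider pathways were followed in 9 lists with 141 further genes, of which 115 were tested. With all 6 libraries 0 of these passed in limma, and 27, or 23.5%, were under 0.05 before adjustment, against 17.9% of all genes. Without FF replicate 3, 19 of 114 passed, 9 higher and 10 lower, which is 16.7% against the background of 13.6%. Shares of single lists are read against the same 13.6%, and the lists are small. Among 22 other glutathione genes 5 rose and 1 fell, 27.3% in all, with a median log2 difference of 0.09, against -0.01 over all genes. Gstm2, a paralogue of Gstm1, had 24.9, 27.6 and 25.6 FPKM in cKO and 15.8, 13.1 and 19.1 FPKM in FF hearts. Ggt5, a gamma-glutamyl transferase that cleaves glutathione conjugates, had 3.92, 3.78 and 3.56 FPKM in cKO and 1.97, 1.97 and 2.05 FPKM in FF hearts. Both were higher in every cKO heart, with log2 differences of 0.81 and 0.68 without FF replicate 3. Glrx, a glutaredoxin that removes glutathione from proteins, rose by 0.51 in the same comparison.

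Of 13 other NRF2 targets 0 rose and 2 fell without FF replicate 3, which at 15.4% is near the share of all genes, with a median of -0.25. They were Blvrb, a biliverdin reductase, by 0.67 and the malic enzyme Me1, a source of NADPH, by 0.41 on the log2 scale. Among 10 partners and regulators of NRF2, 20% passed. Sqstm1, the autophagy receptor that can hold KEAP1, rose by 0.58 and Rbx1, a subunit of the ligase that marks NRF2, fell by 0.45. In FF replicate 3 Sqstm1 stood at 87.5 FPKM, within the cKO range of 75.6 to 94.5 FPKM. Rbx1 stood there at 12.56 FPKM, below the lowest cKO value of 12.61 FPKM. Of 15 NADPH supply genes 2 rose, a share of 13.3% that is near that of all genes. They were Aldh1l1 of folate metabolism, by 0.92, and H6pd, the hexose phosphate dehydrogenase of the endoplasmic reticulum, by 0.62. H6pd was at 11.2 FPKM in FF replicate 3, above the highest cKO value of 10.3 FPKM. With all 6 libraries its log2 difference was 0.32 (SE 0.27). Of 15 genes of selenoproteins and their synthesis 3 fell, or 20%, Selenok by 0.62, Selenof by 0.46 and Selenos by 0.42. The copper chaperone Atox1 fell by 0.53, alone among 13 metal handling genes, a share of 7.69%. Its 30.1 FPKM in FF replicate 3 lay within the cKO range of 28.6 to 32.2 FPKM. In 12 other thioredoxin and methionine sulfoxide genes and in 4 other NADPH oxidase genes 0 passed. The medians of the 9 lists lay between -0.25 and 0.12 without FF replicate 3.

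Metallothionein genes also respond to glucocorticoids, and a list of 10 glucocorticoid targets was read beside them. When FF replicate 3 was left out, Fkbp5, a chaperone of the receptor, rose by 0.80 on the log2 scale. The kinase gene Sgk1 then fell by 0.51 and the phosphatase gene Dusp1 by 0.82. Fkbp5 was at 3.62 FPKM in FF replicate 3, within the cKO range of 3.21 to 5.59 FPKM. The other 7 did not pass, so that 3 of 10 did where 13.6% of all genes did, and with all 6 libraries 0 of 10 did.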

How the data were processed

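The authors deposited FPKM values for 56748 genes in 6 columns, 1 per library, with gene length and coordinates, per the file headers. Tools named in the submitters' processing notes, in no order, are edgeR, featureCounts of Subread, TopHat2 2.0.13 and FastQC, and builds named there with no role are mm10, GRCm39 and GRCh38. No source used here states the annotation release or strand setting. Genes that overlap on opposite strands, as 14 of the 40 do with another gene, may share or lose reads. Gene coordinates are printed as deposited. Of 52073 identifiers shared with GENCODE M21 (GRCm38), 1472 have the same start and end, so they were not joined with the GRCm38.p6 promoter coordinates. FPKM times length gave whole multiples of a single step in each library (tolerance 0.1 reads), from which reads per gene and library were read off. Median-ratio factors of the 6 deposited columns were all 1, so the authors' scaling already equals that method on these values.

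Differences are cKO minus FF of log2(FPKM + 1), a scale that understates changes of low genes. They were fitted with limma 3.58.1 (R 4.3.3), group being the sole term, with an expression trend in the prior, a mean of at least 1 FPKM over the libraries in the fit and Benjamini-Hochberg adjustment over all genes tested at 0.05. The steps were tested on simulated data with the same dispersion in all genes and no outlying library. That test does not cover a library such as FF replicate 3. The genes and lists were chosen with earlier results of these data known. Full values are given for genes past the threshold with all libraries or without FF replicate 3, the 12 with the smallest p, at least 1 per role, and Nfe2l2, Keap1, Mt1 and Mt2. From other lists up to 3 past the threshold are named. Alternatives were other pseudocounts, filters, scalings, variance priors, library weights, GC correction, a replicate block and leaving out each library. GC content came from GENCODE M21 transcripts and was found for 98.4% of the genes tested.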

Additional observations from a re-analysis of the deposited data

How the results depend on the processing

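Of the 37 genes tested, 26 kept the sign of their log2 difference under every alternative run, among them the 16 that the rule for full values chose. The other filters, median-ratio scaling, the robust prior and the replicate block alone leave each log2 difference as it is. These alternatives could not change a sign. The sign changed under at least 1 alternative in 11, which were Gclm, Gpx3, Gss, Gsta4, Gstp1, Hmox1, Mgst3, Nqo1, Prdx6, Sod2 and Sod3. Gpx3 ran from -0.47 to 1.06 and Hmox1 from -0.59 to 0.08. Of the values of those 16 genes under the 18 alternatives, 266 stayed short of the threshold as in the report and 20 passed it. All that passed were with library weights, GC correction, quantile normalization or without FF replicate 3. Median-ratio scaling repeats the main fit, so its values among the 266 were fixed in advance. The count of genes of the set past the threshold was 0 with all libraries, 12 with library weights, 2 with GC correction (Txnip and Gsr) and 1 with quantile normalization (Txnip). Leaving out 1 library gave 0 to 7, the 7 being without FF replicate 3. Over all genes the count of 21 became 11 with a pseudocount of 0.1, 0 without a filter, 53 with a mean of at least 5 FPKM, 59 with quantile normalization, 34 rescaled outside the mitochondrial genome and haemoglobin, 13 with a robust prior, 4300 with library weights and 460 with GC correction. It ran from 0 to 1716 when 1 library was left out. The count in the 9 wider lists was 0, and became 47 with library weights, 6 with GC correction and 0 to 19 when 1 library was left out. The median log2 difference of the set was 0.027 with library weights and ran from -0.16 to -0.040 when 1 library was left out. Genes of the set without overlap then ran from 14 to 22, the 22 being without FF replicate 3, against 52.1% of all genes. Groups of 3 and 2 libraries separate more readily than groups of 3 and 3, so these counts are not comparable with the 13 from all libraries. The cause of the other shifts was not tested. With the replicate number as a block 2 genes passed, 5 with GC correction added, and 0 of the set. Deviations from the group mean correlated at 0.38, -0.24 and 0.24 between same-numbered libraries, and at -0.42 to 0.35 between the others. With 3 libraries per group, these values cannot tell whether the replicate numbers pair the libraries.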

Other observations

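Gpx1 and Mt2 were listed far below what their relatives in the set reached, Gpx1 at 2.08 to 3.29 FPKM against 50.2 to 101 FPKM for Gpx4, and Mt2 at 0.0996 to 0.861 FPKM against 41.4 to 77.6 FPKM for Mt1. Both genes are overlapped on the other strand by an annotated lncRNA gene, over 84.0% of the span of Gpx1 and 82.8% of that of Mt2. Those lncRNA genes had at most 0.0450 FPKM at Gpx1 and 0.0980 FPKM at Mt2. Txnip, with the highest mean FPKM of the set, is overlapped over all of its span. These overlaps are of gene spans, not of exons, and their part in the low values was not tested.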
